A study of Mus musculus with 4 samples.

Results

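The HoxA and HoxB genes described here are the 9 genes Hoxa3, Hoxa5, Hoxa7, Hoxa9, Hoxa10, Hoxb2, Hoxb3, Hoxb4 and Hoxb6. They were chosen by symbol among the 28692 genes listed in the files, which hold 43 rows with a HoxA, HoxB, HoxC or HoxD symbol, so that 34 Hox rows are not members. Single-cell transcriptomes were measured in hematopoietic stem and progenitor cells (HSPCs) sorted from bone marrow of male C57BL/6-CD45.2 mice as lineage-negative, Sca1+, cKit+ and Flt3- cells. No treatment or genetic change is named for any group. Young mice were 2 to 3 months old and aged mice 17 to 18 months old. Each library was a pool of animals: young A pooled 2 mice, young B 3, aged A 3 and aged B 2. The letter names the batch of mice and the facility in which its cells were captured and sequenced, so that each batch held 1 young and 1 aged pool. The free-text descriptions of young B and aged A name the other age, and their titles and source names were used. The pools are the replicates, and a pool hides the differences between its animals.

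Hox genes code for transcription factors with a homeodomain, a DNA-binding fold encoded by the homeobox, and they lie in clusters in which gene order follows the order of use along the body axis. In blood formation, genes of the HoxA and HoxB clusters are active in stem and early progenitor cells and are turned down as cells differentiate. Their proteins bind DNA together with TALE cofactors of the MEIS and PBX families. MLL complexes maintain and Polycomb complexes repress transcription of the clusters. HOXA9 is known for driving self-renewal in progenitors and myeloid leukemia, and HOXB4 for expanding stem cells when it is forced on.

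In GRCm38 with the GENCODE M21 annotation, the HoxA members lie on the minus strand of chromosome 6: Hoxa3 at chr6:52169062-52213336, Hoxa5 at chr6:52201754-52204587, Hoxa7 at chr6:52214491-52221854, Hoxa9 at chr6:52223100-52231089 and Hoxa10 at chr6:52231197-52240854. The HoxB members lie on the plus strand of chromosome 11: Hoxb6 at chr11:96292476-96301569, Hoxb4 at chr11:96318267-96321638, Hoxb3 at chr11:96323326-96347930 and Hoxb2 at chr11:96350525-96354012. All 9 are annotated as protein-coding. Libraries of this kind read the 3′ end of transcripts. There, in the last 500 bases of the members' annotated transcripts, 0% to 3.21% of all words of 31 bases also occurred in a transcript of another gene. Overlapping genes are a different limit. Hoxa7 shared all of the last 500 bases of its exons with the antisense gene Hoxaas3, Hoxb2 shared all 500 and Hoxb3 493 with the antisense gene Hoxb3os, and Hoxa3 shared all 500 with Hoxaas2 on the opposite strand. Outside its last 500 bases, Hoxa3 also shared 482 of its 6014 exon bases with Gm28308 on the same strand. The sources used here do not say whether counting used strand, and whether reads of the partners entered the counts of these genes was not tested.

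The files held 15566 cell barcodes, of which 14915 lay within 2 SD of their pool's mean log UMI count and were kept: 5189 in young A, 2244 in young B, 3328 in aged A and 4154 in aged B. A UMI (unique molecular identifier) marks 1 captured RNA molecule. The pools summed to between 16399999 and 36446168 UMIs, with medians of 5674 to 6719 UMIs per cell, and pairs of pools shared 10 to 29 barcodes. The summed level of 10 stem cell markers was 562 and 568 CPM (UMI counts scaled to a common total in every pool) in the young pools and 1357 and 1269 CPM in the aged pools. All 10 were detected in every pool. The summed level of 5 erythroblast markers was 22.3 CPM in young A, 673 in young B, 60.1 in aged A and 220 in aged B. Marker lists of macrophages, mature neutrophils and stromal cells, of 5 genes each, stayed between 1.59 and 11.8 CPM in all pools, with at most 1 of the genes at 0.

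The members ranged over more than an order of magnitude in level, and 3 HoxA genes, Hoxa9, Hoxa7 and Hoxa10, had the highest means. Because each molecule was counted once at its 3′ end, levels in CPM are shares of the counted molecules and were not divided by transcript length. Hoxa9 was at 102.3 CPM in young A, 64.0 in young B, 95.2 in aged A and 43.4 in aged B. Hoxa7 lay at 63.4, 65.8, 52.9 and 65.0 CPM in the same order. Hoxa10 followed with 35.1, 27.9, 50.8 and 26.2 CPM. Hoxa7 was the most even of the 9. Hoxa9, Hoxa10, Hoxb4, Hoxa5 and Hoxa3 were each higher in both A pools than in both B pools. Hoxb4 was the highest HoxB member among the young pools, at 22.9 and 11.2 CPM, with 29.6 and 21.0 in aged A and aged B. Hoxb2 had 13.0 CPM in young A, 3.05 in young B, 26.9 in aged A and 36.1 in aged B, so that the aged pools lay above the young ones but the young pools differed from each other by a factor of 4.27. Hoxa5 lay at 17.4, 9.57, 27.6 and 13.9 CPM, and its groups overlapped. Hoxa3 was at 7.30, 4.88, 9.96 and 5.56 CPM, again with overlap. Hoxb3 was at 4.25, 3.29, 13.3 and 6.55 CPM and Hoxb6 at 1.76, 1.59, 9.91 and 12.1 CPM, and in both the aged pools lay above the young ones. By mean level over the pools the order was Hoxa9 (76.2 ± 27.5 CPM, SD, n = 4), Hoxa7 (61.8 ± 5.98), Hoxa10 (35.0 ± 11.2), Hoxb4 (21.2 ± 7.61), Hoxb2 (19.8 ± 14.6), Hoxa5 (17.1 ± 7.69), Hoxa3 (6.92 ± 2.27), Hoxb3 (6.84 ± 4.5) and Hoxb6 (6.34 ± 5.47). The SDs include the age groups. Means of neighbours in this order lay closer together than the larger SD of the pair, other than Hoxa7 against Hoxa10, Hoxa10 against Hoxb4, and Hoxa5 against Hoxa3.

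**Figure D1:**
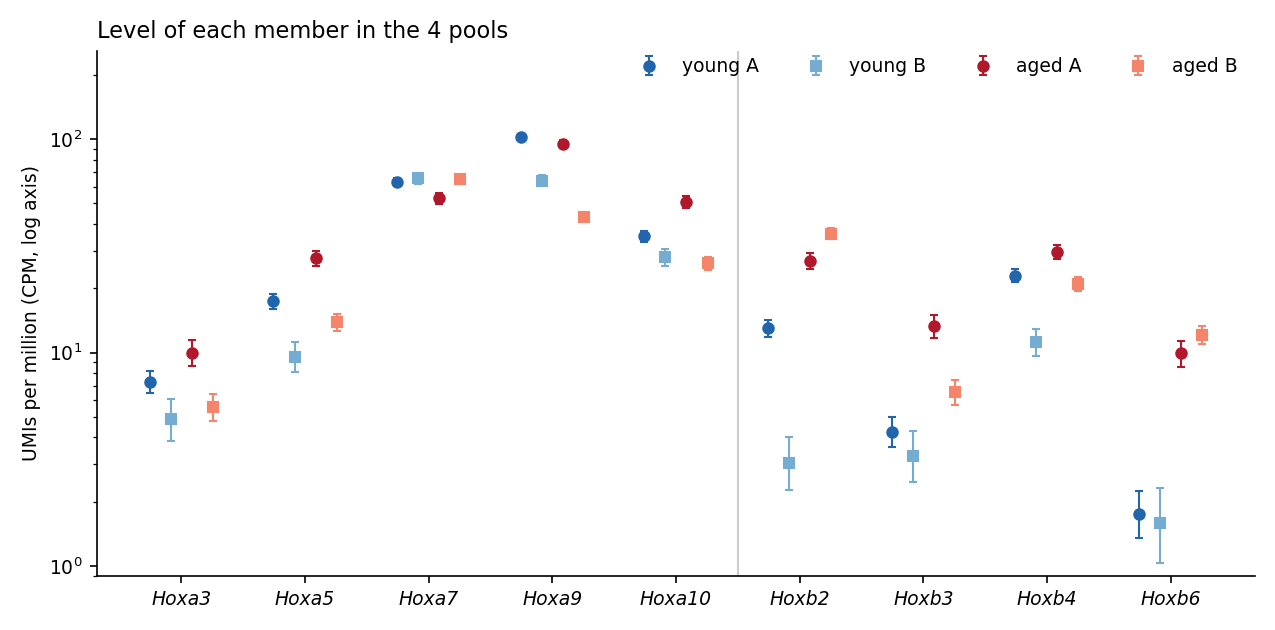
Level of the 9 members in each pool in CPM (log axis), with circles for pools of platform A, squares for platform B, and bars for the exact 95% Poisson interval, which covers counting error only. In Hoxb2, Hoxb3 and Hoxb6 both aged pools lie above both young pools. In Hoxa3, Hoxa5, Hoxa9, Hoxa10 and Hoxb4 both A pools lie above both B pools.

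Levels also differed between the letters, for which the batch of mice and the facility cannot be told apart. The paper gives a higher read depth per cell for young B and aged A than for young A and aged B. Read depth thus differed between the ages within each letter, and its part in the levels was not tested. In 6 of the 9 members, the A pool was higher than the B pool in both age groups, by 1.60-fold in the young and 2.19-fold in the aged pools for Hoxa9. For Hoxa7 it was the B pool that was higher in both ages, with A over B at 0.963 and 0.815. The platform letter was therefore a term in the main comparisons of aged with young pools. Fits with a pool left out did not hold it, and a later test of an interaction with age had the pool as a block instead.

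In single cells most members were seen sparsely. A Hoxa9 UMI was found in 47.9% of young A cells, 34.4% of young B, 41.6% of aged A and 27.3% of aged B cells. Hoxb6 was found in 1.18%, 1.07%, 5.62% and 8.62% of cells in the same order, and Hoxb2 in 8.17%, 2.23%, 15% and 24.3%. After each cell was thinned to 3000 UMIs, leaving out 0, 50, 176 and 4 shallower cells, the shares were 27.5%, 17.6%, 24.4% and 12.1% for Hoxa9, 0.540%, 0.729%, 2.79% and 3.69% for Hoxb6, and 3.78%, 0.957%, 7.49% and 9.81% for Hoxb2. For Hoxb6 and Hoxb2 both aged pools lay above both young pools with and without thinning, while the order of the young pools in Hoxb6 changed. As a level to read these against, 1 of 461 cells of the pEr-like cluster described below held a Hoxb6 UMI (0.217%, exact 95% interval 0.00549% to 1.2%), at a median of 6898 UMIs per cell. Among the 35 cells of the pL2-like cluster, which carry genes of antibody-producing cells (median 5693 UMIs), Hoxa9 and Hoxb4 were each seen in 1 cell and the other members in none (exact 95% upper bound 10%). No cell held more than 7 UMIs of any member. At least 1 of the HoxA members was seen in 65.8% to 73.2% of cells per pool, and at least 1 of the HoxB members in 24.0% of young A, 13.0% of young B, 35.7% of aged A and 42.7% of aged B cells.

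To ask whether age changed the members, the UMI counts of each pool were summed and fitted in edgeR's quasi-likelihood model with the platform letter as a block, over 13555 genes, with Benjamini-Hochberg adjusted p-values. Hoxb6 rose with age, by 2.64 on the log2 scale (SE 0.252, adjusted p = 0.0217), and was the only 1 of the 9 members called. Over all genes tested, 2.03% were called, 1.6% as higher. Hoxb2, Hoxb3 and Hoxb4 had values above 0 that did not pass the threshold: 2.15 (SE 0.655, adjusted p = 0.204), 1.28 (SE 0.229, adjusted p = 0.0751) and 0.58 (SE 0.226, adjusted p = 0.310). The HoxA members had values of 0.55 for Hoxa5 (SE 0.174, adjusted p = 0.217), 0.27 for Hoxa3, 0.17 for Hoxa10, -0.19 for Hoxa7 and -0.38 for Hoxa9, with adjusted p-values from 0.217 to 0.746. The median log2 difference was 1.72 over the 4 HoxB members and 0.17 over the 5 HoxA members, against 0.01 over all genes tested. Both aged pools lay above both young pools in Hoxb2, Hoxb3 and Hoxb6, a pattern held by 18.1% of the genes tested. Within platform A the differences in log2(CPM + 1) were 1.98 for Hoxb6, 1.44 for Hoxb3 and 1.0 for Hoxb2, and within platform B they were 2.34, 0.81 and 3.20. The summed CPM of the HoxB members was 42 in young A, 19.1 in young B, 79.8 in aged A and 75.8 in aged B, and that of the HoxA members 225, 172, 237 and 154. The HoxB members thus gave 15.7% and 10.0% of the members' molecules in the young pools and 25.2% and 33.0% in the aged pools. The summed level of the stem cell marker list moved with them, as given above, but its genes did not move alike. Hlf, Mecom and Mllt3, which are on it, had differences of 0.17, 0.49 and 1.29, none of them called. The age differences of its other genes are not given here, so these genes do not stand for the list. The list also holds Procr, Slamf1 and Vwf, which the paper reports as raised in aged cells. In pool sums a larger share of cells with a transcript cannot be told apart from more transcript per cell. With a pool left out the block has to be dropped too. Leaving out aged A or aged B ended the call of Hoxb6 (log2 differences of 2.97 and 2.34, adjusted p = 0.218 and 0.400), and leaving out young A added a call of Hoxb2 (3.23, adjusted p = 0.000269). In a fit with no platform block the difference of Hoxb6 was 2.69 and was not called (adjusted p = 0.140), as no gene was.

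Of the HoxB genes that are not members, those at the high-numbered end of the cluster also rose. Hoxb7 was at 0.466 and 0.549 CPM in young A and young B and at 4.67 and 7.30 CPM in aged A and aged B. Hoxb8 had 1.59 and 0.122 CPM in the young pools and 19.6 and 10.3 CPM in the aged pools. Hoxb9 had 0.713 and 0.305 CPM in the young and 6.88 and 8.89 CPM in the aged pools. All 3 rose, by 3.44 (SE 0.334, adjusted p = 0.0217), 4.16 (SE 0.535, adjusted p = 0.0366) and 3.78 (SE 0.455, adjusted p = 0.0309) on the log2 scale. Their levels in young A and young B rest on 17 and 9 UMIs for Hoxb7, 58 and 2 for Hoxb8, and 26 and 5 for Hoxb9. Hoxb5, which lies between Hoxb6 and Hoxb4, was at 10.2, 13.3, 21.4 and 30.0 CPM in young A, young B, aged A and aged B, with a difference of 1.07 (SE 0.178) that missed the threshold (adjusted p = 0.0618). In the order of the chromosome from Hoxb9 to Hoxb2, the differences were therefore 3.78, 4.16, 3.44, 2.64, 1.07, 0.58, 1.28 and 2.15, with the lowest value at Hoxb4. The HoxA genes of at least 1 CPM showed no call at any place in their cluster. Hoxa6, at 1.34 to 1.81 CPM, had a difference of 0.07 and Hoxa2, at 0.427 to 1.97 CPM, of 1.14 (SE 0.553, adjusted p = 0.416). Of the antisense RNAs, Hoxb3os (7.38 to 14.4 CPM) had a difference of 0.51, Hoxb5os (6.75 to 9.88 CPM) of 0.12 and Hoxaas3 (2.36 to 4.09 CPM) of -0.49, none of them called. Hoxc6 (0.549 to 2.98 CPM) had a difference of 1.66 and an adjusted p of 0.150. These 10 were the Hox rows outside the members with a mean of at least 1 CPM. The other 24 lay below it, 10 of them at 0 in all pools.

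**Figure D2:**
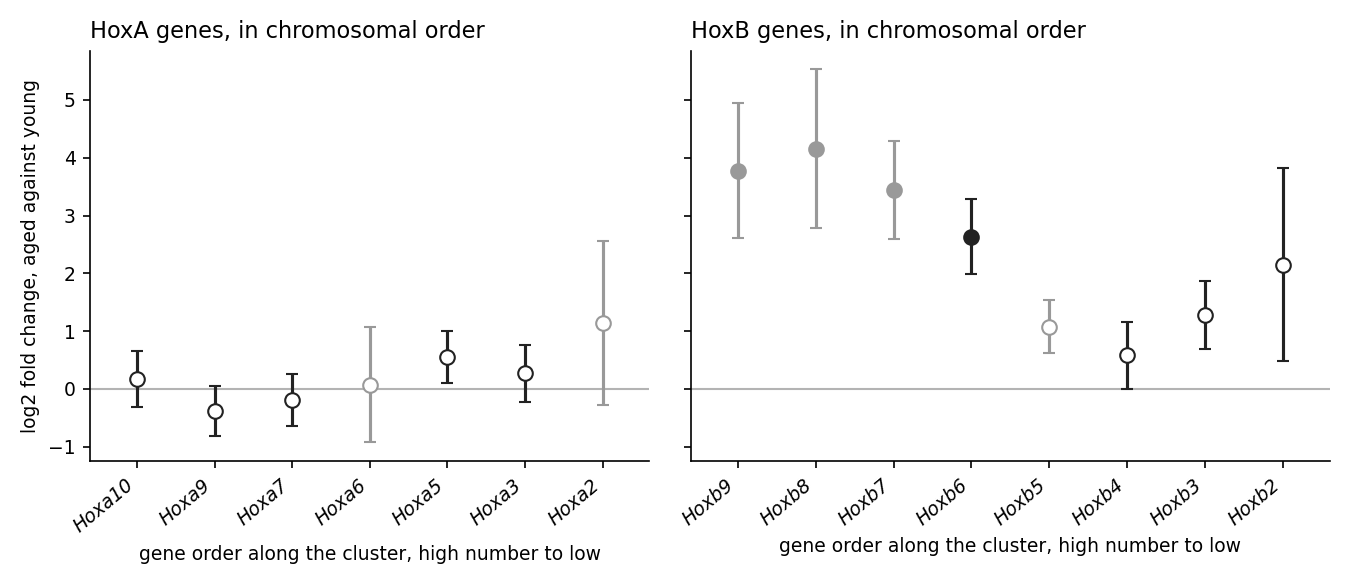
Log2 fold change of aged against young pools for the HoxA and HoxB genes with a mean of at least 1 CPM, placed in chromosomal order but not to scale. Bars are 95% intervals of the fit, black points are members and grey points are not, and filled points have an adjusted p below 0.05. Hoxb6 to Hoxb9 are filled, and no HoxA gene is.

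To compare the members between more and less primitive cells, cells with a Procr UMI and no Cd48 UMI (Procr cells) were set against cells with a Cd48 UMI and no Procr UMI (Cd48 cells) within each pool. Procr codes for EPCR, a surface marker of stem cells, and Cd48 for a surface protein that appears on more differentiated progenitors. The split used neither a Hox gene nor the age label, but its classes are not neutral to age. The paper lists Procr as raised and Cd48 as lowered in its global aging signature. The split gave 1920 and 877 cells in young A, 968 and 339 in young B, 1947 and 191 in aged A, and 2771 and 121 in aged B. Procr cells were thus 37.0%, 43.1%, 58.5% and 66.7% of these pools, and Cd48 cells 16.9%, 15.1%, 5.74% and 2.91%. Procr cells had medians of 5778 to 6701 UMIs and Cd48 cells of 6795 to 9257.

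All 9 members were higher in Procr cells, each of them in 4 of 4 pools, and all 9 passed the test (edgeR quasi-likelihood, pool as a block, Benjamini-Hochberg over 12315 genes). Over all genes, 22.6% were called higher in Procr cells and 43.9% in either direction, so a call alone is common in this comparison. The median log2 difference was 1.52 over the members and 0.06 over all genes tested.

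Hoxa10, the member with the clearest difference relative to its error, was at 47.0, 38.5, 57.9 and 28.7 CPM in the Procr cells of young A, young B, aged A and aged B and at 15, 10.7, 11 and 6.06 CPM in the Cd48 cells. No Cd48 sum reached any Procr sum. The difference was 1.82 on the log2 scale (SE 0.144, adjusted p = 3.73e-06). Hoxb2 had 17.6, 3.57, 30.7 and 40.3 CPM in Procr cells and 3.56, 1.3, 6.2 and 5.19 CPM in Cd48 cells, with a difference of 2.27 (SE 0.199, adjusted p = 6.70e-06). Its young B Procr sum lay below 2 of the Cd48 sums, so the groups overlapped between pools but not within them. Hoxb6 had 2.66, 2.64, 13.0 and 14.7 CPM in Procr cells against 0.636, 0.325, 1.38 and 2.60 CPM in Cd48 cells. Its difference was 2.48 (SE 0.325, adjusted p = 0.000101), with Cd48 sums of 5, 1, 2 and 3 UMIs. Hoxb4 had 28.3, 14.1, 32.7 and 24.1 CPM against 13.6, 5.85, 10.3 and 4.33 CPM, a difference of 1.29 (SE 0.184, adjusted p = 0.000186).

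Hoxa9 differed less, with 120.1, 76.6, 103 and 46.4 CPM in Procr cells and 66.4, 43.6, 70.9 and 19.0 CPM in Cd48 cells, a difference of 0.74 (SE 0.109, adjusted p = 0.000227). The smallest difference was that of Hoxa7, at 74.6, 67.3, 56.4 and 72.0 CPM against 51.7, 57.5, 33.7 and 37.2 CPM, which came to 0.49 (SE 0.111, adjusted p = 0.00381). Hoxa9 and Hoxa7, the most abundant members, thus had the smallest differences, and their sums overlapped between pools. Hoxa5 had a difference of 1.41 (SE 0.173, adjusted p = 6.25e-05), Hoxb3 of 1.73 (SE 0.344, adjusted p = 0.00178) and Hoxa3 of 1.52 (SE 0.327, adjusted p = 0.00294). Like Hoxb6, Hoxa3 and Hoxb3 rest on few molecules in Cd48 cells. Neither Hoxa3 nor Hoxb3 had a UMI in the 121 Cd48 cells of aged B, where a count of 0 allows up to 2.60 CPM. Thinning every cell to 3000 UMIs before the split ended the calls of Hoxa3 (0.85, adjusted p = 0.155) and Hoxa7 (0.32, adjusted p = 0.0917).

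**Figure D3:**
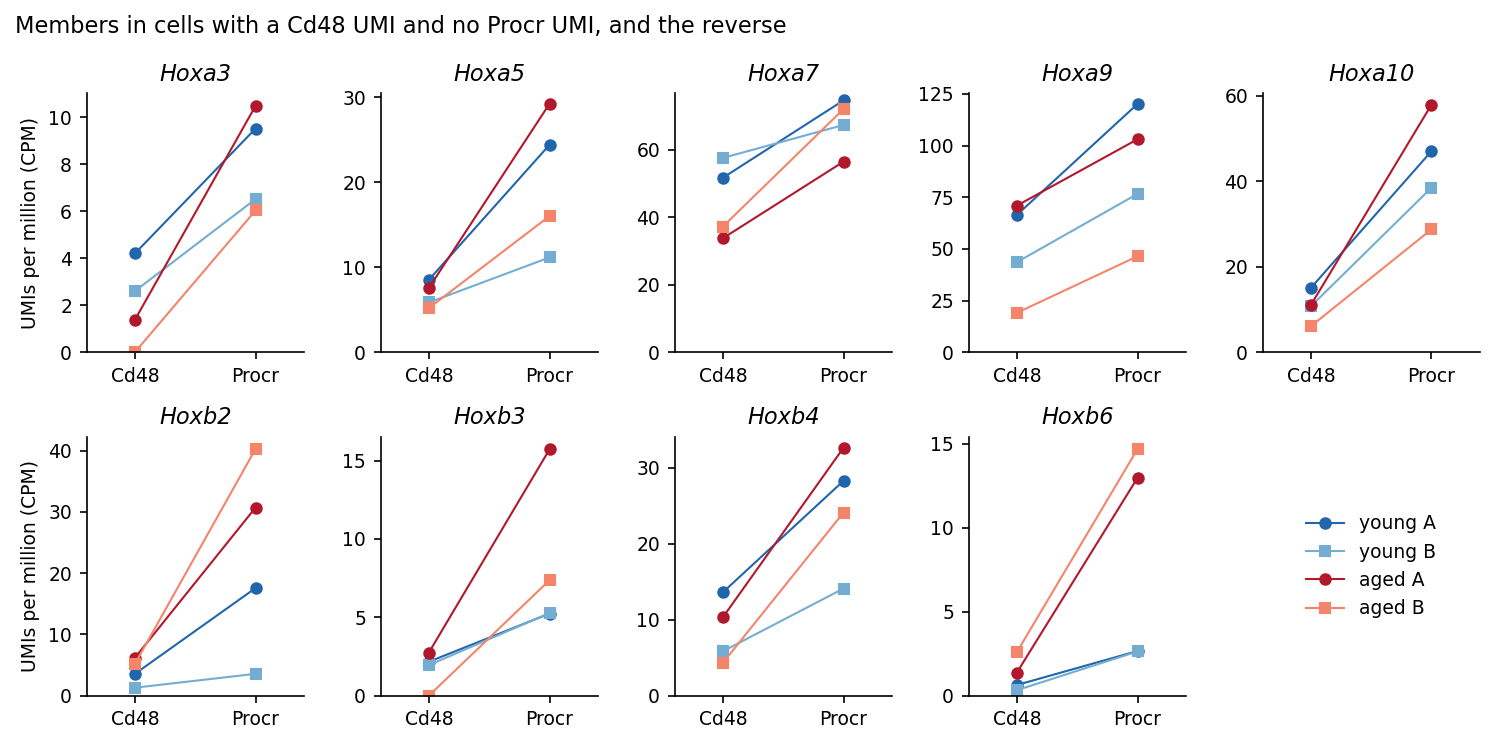
Level of each member in CPM in Cd48 cells and Procr cells of the same pool, joined by a line, with circles for platform A, squares for platform B, and a vertical axis from 0 in every panel. All 36 lines rise from Cd48 to Procr cells.

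Whether age changed this contrast was tested as an interaction of cell class and age in the same fit, where 3.16% of all genes were called. None of the 9 members was called by edgeR's quasi-likelihood test, with 4 at an unadjusted p below 0.05, and DESeq2 called 0. The share of all genes below that unadjusted level is not given here, so the count of 4 is a description only. The largest interactions were 2.22 for Hoxa3 (SE 0.866, adjusted p = 0.216) and 1.63 for Hoxb3 (SE 0.761, adjusted p = 0.338). Neither gene had a UMI in the Cd48 cells of aged B, and without that pool the values were 1.65 and 1.13 (adjusted p = 0.402 and 0.540). Without aged A they were 7.67 and 7.85, fitted against the count of 0 alone and no measure of size. Those of Hoxb4 (0.81, SE 0.356, adjusted p = 0.294) and Hoxa7 (0.43, SE 0.180, adjusted p = 0.261) were the other pair with an unadjusted p below 0.05. The unadjusted 95% intervals of these 4 members lay above 0, the nearest bound being 0.060 for Hoxa7, and those of the other 5 included 0.

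Within Procr cells alone, age was compared in the same way over 12508 genes, of which 1.21% were called. Hoxb6 rose by 2.34 (SE 0.237, adjusted p = 0.0255) and no other member was called. Hoxb2 had a value of 1.92 (SE 0.664, adjusted p = 0.294), Hoxb3 of 1.05 (SE 0.299, adjusted p = 0.214) and Hoxb4 of 0.45 (SE 0.236, adjusted p = 0.515). The HoxA members lay between -0.49 for Hoxa9 (SE 0.177, adjusted p = 0.317) and 0.36 for Hoxa5 (SE 0.204, adjusted p = 0.566). Of the HoxB genes that are not members, Hoxb7 rose by 2.94 (adjusted p = 0.0353) and Hoxb9 by 3.32 (adjusted p = 0.0262). Hoxb8 at 3.48 and Hoxb5 at 0.74 were not called (adjusted p = 0.0686 and 0.174). Hoxb7, Hoxb8 and Hoxb9 were also called higher in Procr than in Cd48 cells, by 4.55, 2.92 and 3.44 (SE 0.748, 0.444 and 0.577). In the Cd48 cells of young A, young B, aged A and aged B, Hoxb7 had 1, 0, 0 and 0 UMIs. Hoxb8 had 0, 0, 7 and 2 and Hoxb9 had 1, 0, 2 and 0, so the sizes rest on few molecules. Leaving out any 1 of the 4 pools, young A (2.25, adjusted p = 0.0647), young B (2.47, adjusted p = 0.235), aged A (2.60, adjusted p = 0.248) or aged B (2.09, adjusted p = 0.435), ended the call of Hoxb6, and leaving out young A added one of Hoxb2 (3.19, adjusted p = 0.00139). Within Cd48 cells 6 of the 9 members had enough counts to be tested, and 0.459% of the 9586 genes tested were called, 0.0522% as lower. None of the 6 was called by edgeR or by DESeq2, and 1 of them, Hoxa7 at -0.61 (SE 0.229, adjusted p = 0.854), had an unadjusted p below 0.05. Values ranged from -0.61 to 1.17, the last for Hoxb2 (SE 0.592).

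To describe the members along the cell types of the sort, the pools were integrated and clustered without any Hox gene, which gave 14 clusters. A cluster was named when at least 3 genes of a marker list were raised in it and at least 1 gene of that list was among its 10 leading genes. Clusters 0, 2 and 4, with 3612, 2163 and 1174 cells, stayed unnamed: their leading genes were Flt3, Gm5111 and Vldlr in cluster 0, Traip, Sult1a1 and Meg3 in cluster 2, and Spry2, Slc39a1 and Zfp691 in cluster 4. The HSC-like cluster held 3512 cells. In it 6 stem cell markers were raised but only 1 was among the 10 leading genes, which began with Cldn5, Ramp2 and Gpr183. Clusters of replicating (rep-like, 1683 cells) and dividing (div-like, 785) cells followed. The primed clusters were pNeu-like (511, neutrophil genes), pEr-like (461, erythroid), pMk-like (248, megakaryocyte), pMast-like (200, mast cell and basophil), pL1-like (87) and pL2-like (35, both lymphoid). Small clusters were led by immediate early genes (tgf-like, 239) and interferon response genes (ifn-like, 205). The HSC-like cluster held 16.2% of the cells of young A, 15.7% of young B, 30.7% of aged A and 31.2% of aged B.

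Both gene groups had higher mean levels in the HSC-like, unnamed, tgf-like and ifn-like clusters than in the pNeu-like, pEr-like, pMk-like and pMast-like ones. The pL1-like and pL2-like clusters did not reach 50 cells in any pool and have no mean level here. The levels are descriptions with no test. In the HSC-like cluster the HoxA members summed to 306, 231, 258 and 172 CPM in young A, young B, aged A and aged B. In pEr-like cells they summed to 85.4, 77.6, 84.2 and 63.5 CPM, and in pNeu-like cells to 133, 134, 147 and 102 CPM. The HoxB members were at 77.2, 35.1, 103.5 and 90.4 CPM in HSC-like cells, at 16.5, 11.9, 22.0 and 15.2 CPM in pNeu-like and at 13.1, 6.09, 8.28 and 8.75 CPM in pEr-like cells. In rep-like cells the HoxA sums were 184, 126, 174 and 108 CPM, below the HSC-like sums in every pool and above the pNeu-like sums in all but young B. The HoxB sums there were 30.4, 13.9, 44.5 and 52.1 CPM, between the HSC-like and pNeu-like sums in every pool. In the dividing cells the HoxA sums were 122 to 213 CPM. In the order of the mean over pools with at least 50 cells, most neighbouring clusters overlapped. For the HoxA sums the ranges did not overlap between the tgf-like and ifn-like clusters, with 2 pools each, and between the pNeu-like and pMk-like clusters (102 to 147 CPM against 74.2 to 85.6). The tgf-like and ifn-like clusters reached 50 cells in the A pools only. In young A and aged A the HoxA sums were 282 and 319 CPM in tgf-like cells and 267 in both for ifn-like cells. Those of HSC-like cells were 306 and 258 CPM in these pools. For the HoxB sums all neighbours overlapped. The pMast-like cluster, which reached 50 cells in 1 pool only (93.1 CPM for the HoxA and 18.4 CPM for the HoxB members), was left out of this order.

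Hoxa9 and Hoxa7 had the highest mean levels in the pNeu-like, pEr-like, pMk-like and pMast-like clusters, as in HSC-like cells. This describes levels and not the share of the HSC-like level that was kept. Hoxa7 averaged 23.8 CPM in pEr-like and 72.2 in HSC-like cells. In pMk-like cells, with 2 pools, Hoxa9 averaged 30.7 CPM and Hoxb4 13.8, against 86.4 and 28.1 in HSC-like cells. Hoxa9 was at 38.2, 36.5, 46.9 and 28.4 CPM in the pEr-like cells of young A, young B, aged A and aged B and at 124.5, 80.8, 94.8 and 45.5 CPM in HSC-like cells. Hoxa10 was at 10.02, 14.1, 12.9 and 12.2 CPM in pNeu-like cells against 64.0, 46.8, 57.1 and 29.2 CPM in HSC-like cells. In pEr-like cells Hoxa10 averaged 9.54 CPM. Hoxb6 was at 4.47, 7.11, 15.5 and 16.2 CPM in HSC-like cells and was counted with 1 UMI in all pEr-like cells of the 4 pools together. Hoxb2 was at 30.2 CPM in young A, 5.08 in young B, 36.4 in aged A and 40.9 in aged B in HSC-like cells, and its young A level there lay near the aged ones.

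**Figure D4:**
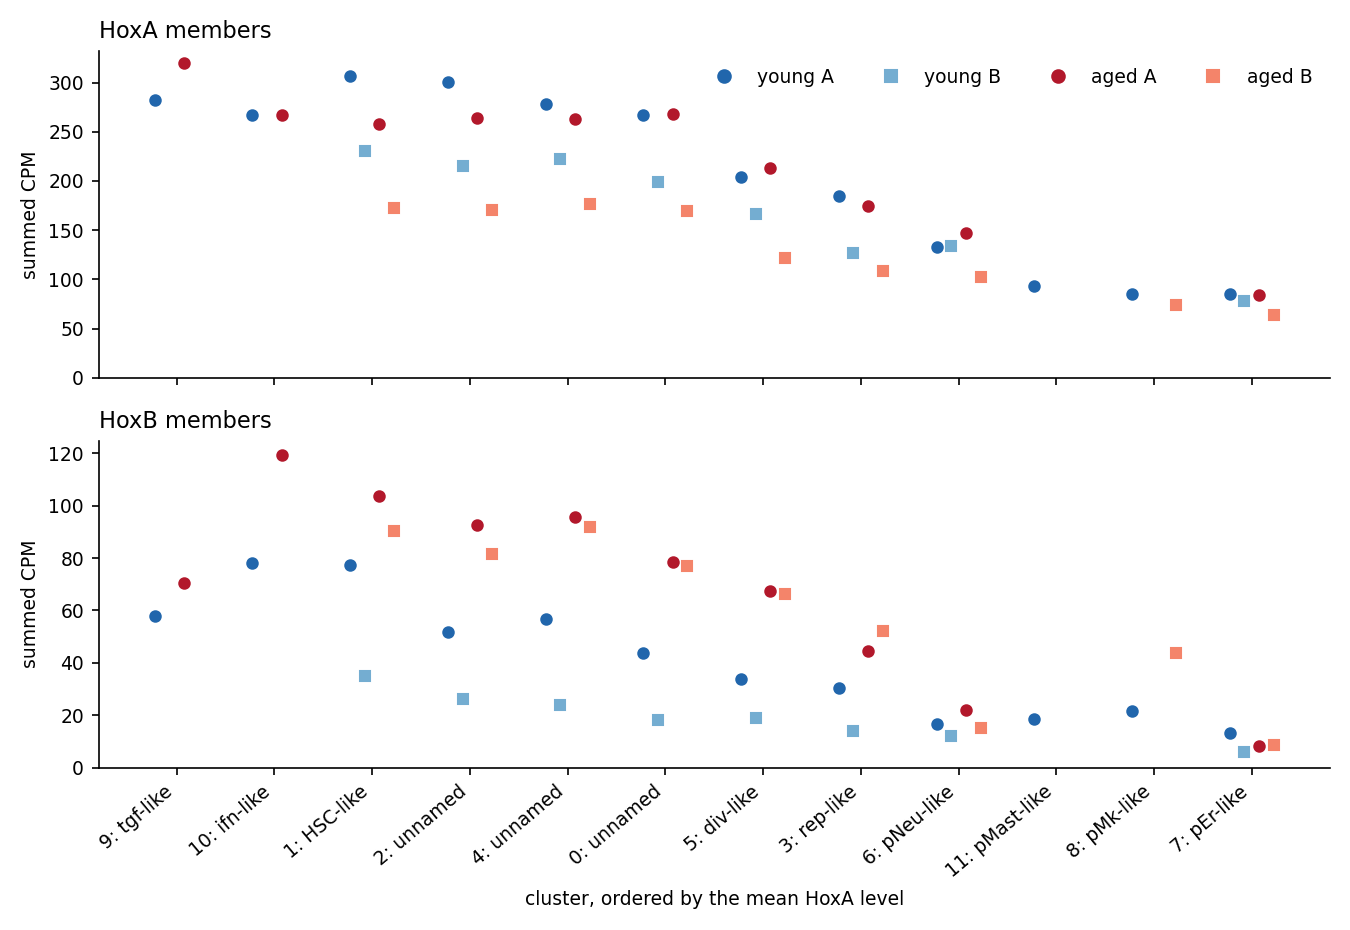
Summed level in CPM of the HoxA members (top) and HoxB members (bottom) by cluster and pool, for sums of at least 50 cells, with circles for platform A and squares for platform B. Clusters are ordered by their mean HoxA level, and both groups have their lowest mean in the pEr-like cluster at the right. The tgf-like and ifn-like means rest on young A and aged A only, so their place in the order is not like for like.

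Age was tested within each of the 11 clusters with at least 10 cells in every pool. Of 65 tests of a member in a cluster 2 were called, against 1% of all tests of a gene in a cluster. Both were in the unnamed cluster 4, where 3.06% of genes were called. The share of genes called was 0.89% in cluster 0, 1.18% in HSC-like, 0.536% in cluster 2, 1.04% in rep-like, 1.18% in div-like, 0.0466% in pEr-like, 0.314% in pMk-like and 1.59% in ifn-like cells, and 0% in pNeu-like and pMast-like cells. In cluster 4 Hoxb6 was at 1.19, 2.39, 12.0 and 13.6 CPM in young A, young B, aged A and aged B and rose by 2.93 (SE 0.629, adjusted p = 0.00554), although the young levels rest on 3 and 2 UMIs. Hoxb2 was at 18.3, 3.59, 35.1 and 42.4 CPM there and rose by 1.61 (SE 0.407, adjusted p = 0.0241). DESeq2 called neither of them, with adjusted p-values of 0.991 and 0.831. Leaving out young A (Hoxb6 2.27, Hoxb2 3.30), aged A (3.22 and 1.95) or aged B (2.76 and 1.37) ended both calls, and leaving out young B ended that of Hoxb2 (1.16). The HoxB members had a value above 0 in 25 of 25 tests, and the HoxA members in 16 of 40. The share of all genes above 0 in these tests is not given here, so the counts are a description only. Only members with enough counts were tested, and no HoxB member was tested in pNeu-like, pEr-like, pMk-like or pMast-like cells. In young and aged pools the HoxB sums averaged 14.2 and 18.6 CPM in pNeu-like and 9.57 and 8.52 CPM in pEr-like cells. Of the members, Hoxb4 was lower in the aged mean of both, on 47 UMIs in pNeu-like and 28 in pEr-like cells. Hoxb2 was higher in both, on 13 and 9 UMIs. Hoxb3 had 12 and 2 UMIs and Hoxb6 4 and 1, too few to give a direction. Hoxb6 ranged from 1.47 to 2.93 over 5 clusters and Hoxb2 from 0.99 to 2.19 over 7. Hoxa9 ranged from -0.64 to 0.07 and Hoxa7 from -0.77 to 0.14 over 10 clusters each. These clusters share their pools, so the tests are not independent of each other. In HSC-like cells, Hoxb6 had a value of 1.47 (SE 0.303, adjusted p = 0.105) and Hoxb4 of 0.20 (SE 0.259, adjusted p = 0.898).

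Genes most like the members were sought over the 39 sums of a cluster and a pool with at least 50 cells, by Pearson correlation of log2(CPM + 1) after each pool's mean was subtracted, among 5559 genes with a mean of at least 20 CPM. The sums share libraries and depth, and the coefficients are given as a description. For the summed HoxA members these were Hlf (r = 0.971), a transcription factor of stem cells, Nceh1 (0.963), Gimap6 (0.959), Camk2d (0.955) and Fam134b (0.955). For the summed HoxB members they were Mmrn1 (0.949), Mecom (0.945), a transcription factor needed for stem cell maintenance, Ndn (0.943), Nab2 (0.942) and Gata3 (0.942). Summed HoxA and summed HoxB members had r = 0.879 over the same sums.

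The genes that work with the members were followed from 5 lists. Of the 11 TALE cofactors 10 were tested, and Meis2 and Meis3 rose with age. Meis3 was at 2.74 and 2.93 CPM in the young and 10.6 and 9.94 CPM in the aged pools, a difference of 1.80 (SE 0.203, adjusted p = 0.0271). Meis2 was at 0.741 and 0.793 CPM in the young and 5.29 and 3.64 CPM in the aged pools, a difference of 2.48 (SE 0.351, adjusted p = 0.0452). Meis1 (168 to 305 CPM, difference 0.26) and Tgif1 (difference -0.29) were not called with age. In Procr cells 6 of the 10 were higher than in Cd48 cells, where 22.6% of all genes were called higher and 21.3% lower, with the largest differences in Meis3 (3.23), Meis2 (2.91) and Meis1 (1.06), and Pbx4 was lower (-0.73). The list's median was 0.08 with age and 0.72 between Procr and Cd48 cells, against 0.01 and 0.06 over all genes.

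Among 20 activators of Hox genes, 17 were tested, Cdx1, Cdx2 and Cdx4 were at 0 in all pools, and none was called with age by edgeR. Mllt3, a subunit of complexes that act with MLL, had a value of 1.29 (adjusted p = 0.0540). It is also on the stem cell marker list. Between Procr and Cd48 cells 4 were higher, led by Mllt3 (2.66), Mllt6 (0.54) and Aff4 (0.50), and 5 lower (9 of 17 called, against 43.9% of all genes), led by Dpy30 (-0.81), Kat7 (-0.63) and Psip1 (-0.59), so that the list had no common direction and a median of -0.22. The Polycomb list held 21 genes, among them Kdm6a and Kdm6b, demethylases that remove the Polycomb mark and are not repressors. All 21 were tested and 0 were called with age by edgeR. Between the classes 8 of the 21 were called, against 43.9% of all genes. Of these, 3 were higher in Procr cells, Ezh1 (1.28), Cbx7 (1.07) and Kdm6b (0.45), and 5 were lower, led by Ezh2 (-1.47), Rbbp4 (-0.75) and Eed (-0.69). Ezh1 and Ezh2 are the alternative catalytic subunits of Polycomb complex 2 and stood on opposite sides. The medians of the list were -0.07 with age and 0.22 between the classes.

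Of 15 genes listed as bound by HOXA9 and MEIS1, 2 were lower in aged pools, where 0.428% of all genes were called lower: Flt3 by -2.46 (SE 0.194, adjusted p = 0.0141) and Cd34 by -1.67 (SE 0.211, adjusted p = 0.0354), and none was higher. Flt3 was a sorting marker, and its transcript was at 48.0 and 15 CPM in the young and 10.5 and 2.40 CPM in the aged pools. Cd34 was at 288 and 234 CPM in the young and 117 and 61.0 CPM in the aged pools. The most abundant genes of the list were Lmo2 (difference with age 0.56), Pim1 (0.54) and Sox4 (-0.99, adjusted p = 0.0867), none of them called. Between Procr and Cd48 cells 4 were higher, led by Camk2d (1.51), Lmo2 (1.01) and Erg (0.88), and 8 were lower (21.3% of all genes), led by Cdk6 (-1.93), Cd34 (-1.15) and Trib2 (-0.98). None of the 12 stem cell regulators was called with age. Their median difference was 0.41, with 0.21 for Lyl1, 0.17 for Hlf and 0.06 for Hhex, and 7 were higher in Procr cells (22.6% of all genes), led by Mecom (2.13), Hlf (1.72) and Mycn (1.66).

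Detection of members in the same cells was counted last. For each pair of members the number of cells with a UMI of both was divided by the number given by the product of their shares. The median ratio over the 10 pairs of HoxA members was 1.13 in young A, 1.12 in young B, 1.14 in aged A and 1.2 in aged B. Over the 6 HoxB pairs it was 1.39, 0.752, 1.48 and 1.19. The 0.752 of young B rests on 0 to 3 cells per pair, where the product gave 0.535 to 4.11. Cells differ in depth, and the part of depth in these ratios was not tested. In cells thinned to 3000 UMIs, a HoxB member was seen in 13.3% of the young A cells with a HoxA UMI and in 10.4% of those without. The shares were 6.37% and 5.69% in young B and 22.8% and 18.9% in aged A, and 20.7% of both kinds in aged B.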

How the data were processed

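The deposited values of the 4 pools were UMI counts per gene and cell from Chromium 3′ v2 libraries. The submitters' processing notes name Cell Ranger 2.2.0, mm10 and GRCm38.p4. The members and gene lists were chosen with earlier results of these data known. Cells within 2 SD of their pool's mean log UMI count were kept, and no doublet caller was run. Counts were summed per pool, per Procr or Cd48 class, or per cluster, and tested with edgeR 4.0.16 (TMM, filterByExpr, quasi-likelihood, two-sided, Benjamini-Hochberg threshold 0.05 over all genes tested) in R 4.3.3, with the platform letter or the pool as a block. SE was taken as the log2 fold change over the square root of F. Same-letter pools deviated together (correlation of their deviations from the group means 0.576 over 13555 genes), and the letter is a shared batch by the study's methods. Replicates are pools of mice. Clusters came from Seurat 5.3.0 integration of the pools with cell-cycle regression (phases from scran 1.30.0), 2000 variable genes less 4 Hox genes, 15 principal components, 20 neighbours and resolution 0.5. Alternatives were RLE size factors, no filter on low counts, DESeq2 1.42.0, all barcodes, no block, cells thinned to 3000 UMIs, resolution 0.8 and each pool left out. Other Hox genes and antisense RNAs were named from a mean of 1 CPM, and list genes by the 3 largest called changes in each direction or the 3 highest means. Intervals of counts and shares are exact at 95% and cover counting error only. Each test other than the age tests within clusters was tried on simulated counts. These had the same dispersion for all genes and no platform or pool effect, unlike the data. One list gene that the naming rule would have named, and the coding sequences of the members, are not reported here.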

Additional observations from a re-analysis of the deposited data

Results flagged for a closer look

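In 2 members the age differences in Procr and Cd48 cells had opposite signs on both platforms. The share of all genes with this pattern is not given here, so the count is a description only. Hoxb4 had aged minus young differences in log2(CPM + 1) of 0.20 on platform A and 0.73 on platform B in Procr cells, and of -0.37 and -0.36 in Cd48 cells. Its interaction of class and age was 0.81 on the log2 scale (SE 0.356), which edgeR did not call (adjusted p = 0.294). For Hoxa5 the differences were 0.25 and 0.49 in Procr cells and -0.15 on both platforms in Cd48 cells, with an interaction of 0.45 (SE 0.392, edgeR adjusted p = 0.709). The Cd48 sums of the aged pools held 15 and 5 UMIs of Hoxb4 and 11 and 6 UMIs of Hoxa5.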

How the results depend on the processing

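With no replicate block, 0 members were called in whole pools, 0 within Procr cells (Hoxb6 2.38, adjusted p = 0.196) and 0 within clusters, and no gene of the 13555 was called in whole pools. Fits that leave out a pool have no block: they called 0 to 2 members in whole pools, 0 to 1 within Procr cells and 0 to 4 within clusters. Without a filter on low counts 3 members were called in whole pools (Hoxb6, Hoxb2 with adjusted p = 0.047 and Hoxb3 with 0.0126), and DESeq2 called 0 within clusters. Over all genes, whole pools gave 275 calls, against 774 without a filter, 543 with DESeq2 and 0 without the block. Between Procr and Cd48 cells, 7 of 9 members were called with no pool block (not Hoxa7 and Hoxa9), 7 after thinning, and 9 with every pool left out in turn. Values that changed sign with a pool left out ranged in whole pools from -0.0080 to 0.50 for Hoxa3, -0.51 to 0.12 for Hoxa7 and -0.15 to 0.47 for Hoxa10. For the interaction they ranged from -0.12 to 0.91 for Hoxb6 and -0.36 to 0.45 for Hoxa9. In Procr cells the ranges were -0.27 to 0.19 for Hoxa3, -0.082 to 0.81 for Hoxa5, -0.53 to 0.15 for Hoxa7 and -0.44 to 0.24 for Hoxa10, and in Cd48 cells -1.03 to 0.18 for Hoxb4 and -1.38 to 0.23 for Hoxa9. Hoxa3 in Procr cells, at -0.0047, was at 0.000538 without a filter on low counts and at 0.00525 with all barcodes. None of these sign changes concerned a called value. Where a call changed, the cause was not tested. Counts of a few UMIs limit Hoxb6, Hoxb3 and Hoxa3 in Cd48 cells and primed clusters.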
